A study of Mus musculus with 24 samples.

Results

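Innate lymphoid cells sorted as CCR6 were compared with those sorted as DN in mice without REV-ERBs, over all genes of the count table. The comparison used 6 of the 24 RNA-seq libraries of the study, 3 labelled DKO CCR6 and 3 labelled DKO DN. The same contrast in 3 WT CCR6 and 3 WT DN libraries was set beside it, and no library belonged to both contrasts. All cells came from the lamina propria of the small intestine of mice 8 to 12 weeks old. DKO mice carried Vav1-driven Cre together with floxed Nr1d1 and Nr1d2, the genes of REV-ERBα and REV-ERBβ, and WT mice were littermates with the floxed alleles. Cre under Vav1 control is active in blood-forming cells and their offspring, so the deletion was not limited to innate lymphoid cells. CCR6 is a chemokine receptor, and what DN stands for is not given in the sources used here. Neither are the antibodies of the sort gates, nor whether replicate libraries are from different mice. The p-values therefore rest on a spread among libraries that may be technical.

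REV-ERBs are heme-binding nuclear receptors that repress transcription, and they bind the same DNA elements as the activating ROR receptors. CCR6+ group 3 innate lymphoid cells (ILC3) of the gut resemble lymphoid tissue inducer (LTi) cells, gather in cryptopatches and lymphoid follicles, and carry MHC class II molecules with which they present antigen to T cells. ILC3 that lack CCR6 can take up T-bet (Tbx21) and with it parts of a type 1 programme, such as interferon gamma, the receptor NKp46 (Ncr1) and cytotoxic granule genes.

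Libraries held 41.7 to 62.9 M counts (M, 1e6 counts) in DKO CCR6, 40.7 to 66.7 M in DKO DN, 51.6 to 84.4 M in WT CCR6 and 38.0 to 46.7 M in WT DN, and replicate pairs of the DKO groups had Spearman correlations of 0.959 to 0.962 over genes. Levels below are counts per 1e6 counts (CPM) for each library in the order of its replicate number, or the mean ± SD of 3 libraries. They are not divided by gene length and are compared within a gene only. Nr1d1 averaged 1500.1 ± 53.2 CPM in DKO CCR6 and 1654 ± 150.1 CPM in DKO DN, against 574 ± 30.9 CPM in WT CCR6 and 425 ± 55.9 CPM in WT DN. Nr1d2 averaged 109.9 ± 35.3 and 90.9 ± 26.8 CPM in the same DKO groups, against 37.6 ± 1.77 and 31.1 ± 11.8 CPM in WT CCR6 and WT DN. Both targeted genes thus had more counts in libraries labelled DKO than in those labelled WT. The sources used here do not name the deleted exons, and counts summed over a gene do not reveal their loss. The genotype labels, on which every statement about DKO rests, are therefore not checked by these values. Between CCR6 and DN libraries labelled DKO, Nr1d1 differed by -0.14 ± 0.20 and Nr1d2 by 0.27 ± 0.36 (log2 ± SE), and neither difference passed the test. Vav1 averaged 246 ± 21.3 CPM in DKO CCR6 and 228 ± 13.4 CPM in DKO DN.

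In DKO CCR6 libraries 25 of 34 type 1 and cytotoxic genes (23 of 32 without Ncr1 and Klrb1c, used below to check the sort) were lower than in DKO DN libraries, and 4 of 11 MHC class II antigen presentation genes were higher, against 1.35% lower and 0.432% higher of all genes tested. Also lower were 9 of 14 T cell receptor complex genes and 10 of 20 ILC2 genes. These lists were chosen with earlier results of these data known, so their shares describe the lists and are no independent test. Of 21286 genes tested, 380 passed edgeR's quasi-likelihood test at a Benjamini-Hochberg adjusted p under 0.05, which is 1.79% of those tested. Of these, 92 were higher and 288 were lower in DKO CCR6 libraries. All 92 higher and 287 of the 288 lower genes had libraries that did not overlap between the groups, which held for 18.6% of all tested genes. An unadjusted p under 0.05 was found for 1712 genes (8.04%). The median size of the difference was 2.005 log2 units among the higher genes and 1.92 among the lower genes. A difference of over 3 log2 units was found for 26 higher and 104 lower genes. Protein-coding genes made up 87 of the higher and 251 of the lower genes. The median log2 difference of all tested genes was 0.0043. When each of the 6 libraries was left out in turn, 178 of the 380 genes passed every time, 33 of them higher and 145 lower. The count fell to 228 without DKO CCR6 library 1, 230 without DKO CCR6 library 2, 249 without DKO DN library 1 and 225 without DKO DN library 3. Fits that left out a library, here and below, repeated the expression filter, and these 6 tested 22839 to 22908 genes. A lost call therefore goes with a larger set of tested genes as well as with the missing library. Without WT ILC1 library 2, a library of another population that stands apart, 516 genes passed, 123 higher and 393 lower. That fit tested 22740 genes, so this library enters through the choice of tested genes as well as through the shared spread.

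**Figure D1:**
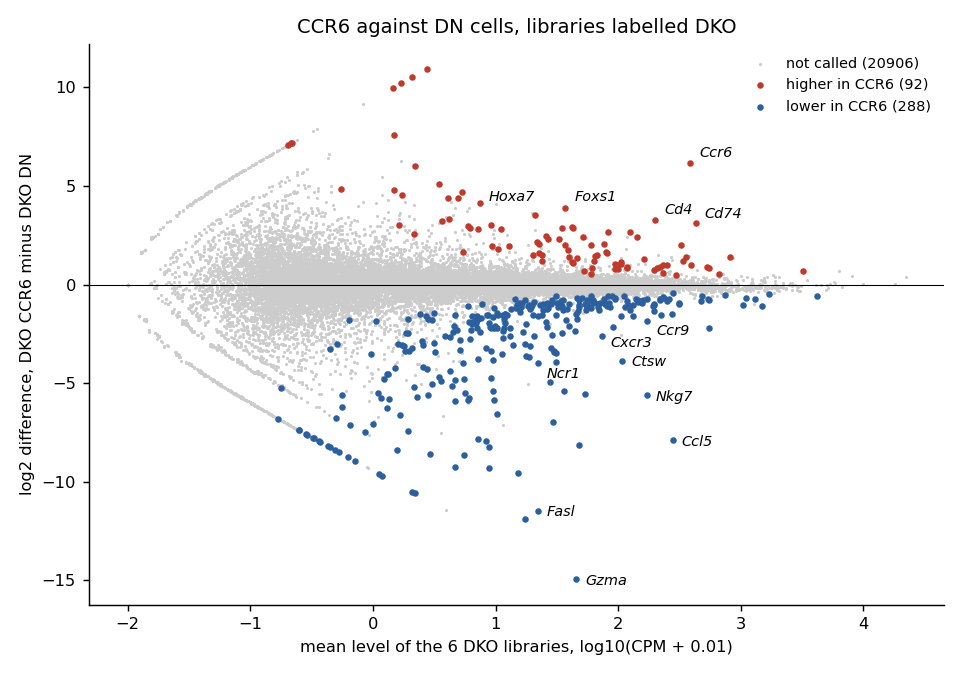
Log2 difference of each of the 21286 tested genes between DKO CCR6 and DKO DN libraries (vertical axis) against its mean level in these 6 libraries, log10 of CPM + 0.01 (horizontal axis); the 92 genes that passed as higher are red, the 288 that passed as lower are blue. Among the lower genes Ccl5, Nkg7 and Ctsw combine a high level with a large difference, and fitted differences of genes with 0 counts in a group, such as Gzma, depend on the prior count of the fit.

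Of the sort markers, Ccr6 fitted the CCR6 label. What DN stands for is not given, so the DN label itself cannot be checked. Ccr6 (ENSMUSG00000040899; GRCm38 chromosome 17, 8236043 to 8257141, plus strand) was at 882, 702 and 714 CPM in DKO CCR6 libraries, against 8.22, 12.8 and 10.6 CPM in DKO DN libraries. The groups did not overlap, and the log2 difference was 6.19 ± 0.79 (adjusted p = 6.0e-05). The other DKO populations were lower still, at 0.716 to 6.85 CPM in NKp46 and 0.295 to 1.32 CPM in ILC1 libraries. Ncr1, the gene of the natural cytotoxicity receptor NKp46, was at 2.55, 2.58 and 2.63 CPM in DKO CCR6, against 43, 29.1 and 52.1 CPM in DKO DN, a log2 difference of -4.00 ± 0.32 (adjusted p = 5.6e-08). DKO DN libraries stayed far under DKO NKp46 libraries, which ran from 397 to 551 CPM. Since these receptors name the sorted populations, their differences check the sort and are no separate result. Cd4, a coreceptor also carried by LTi cells of the mouse, was at 472, 338 and 274 CPM in DKO CCR6 and 54.2, 27.5 and 28.9 CPM in DKO DN (log2 difference 3.29 ± 0.43, adjusted p = 4.7e-05). Klrb1c, the gene of the receptor NK1.1, was at 3.87, 2.7 and 4.19 CPM in DKO CCR6, against 14.1, 13.8 and 14.1 CPM in DKO DN (-1.96 ± 0.18, adjusted p = 3.7e-07). Il7r, the interleukin 7 receptor that helper-like innate lymphoid cells share, averaged 795 ± 17.5 CPM in DKO CCR6 and 656 ± 50.0 CPM in DKO DN and did not pass the test (adjusted p = 0.72).

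**Figure D2:**
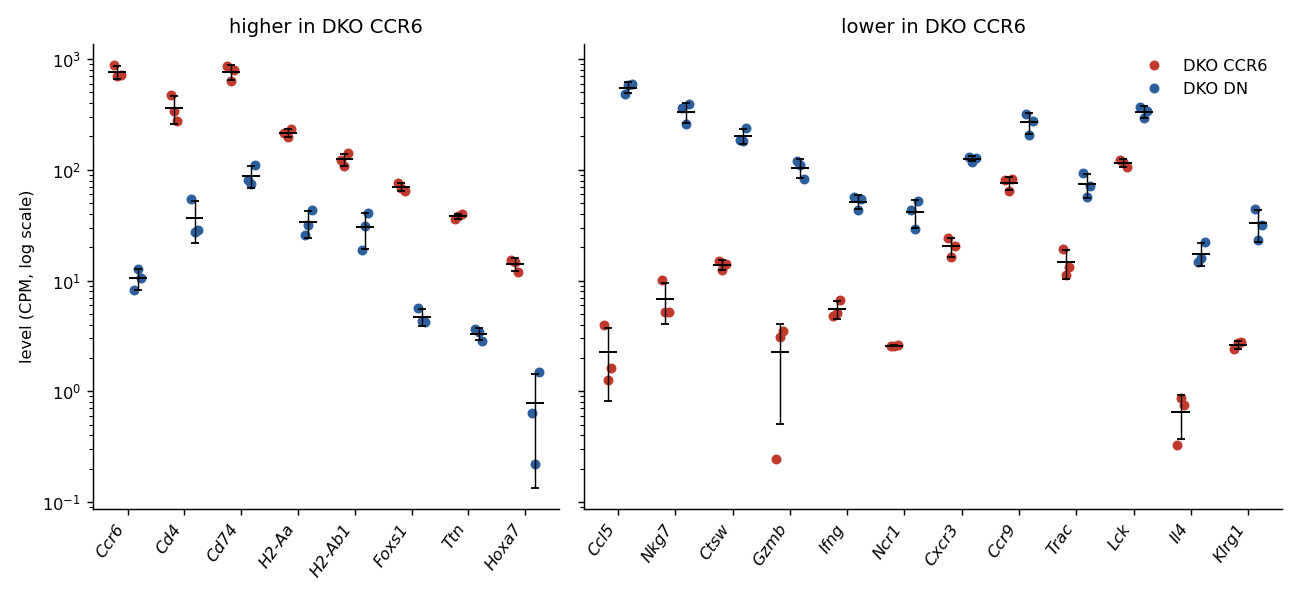
Levels in CPM on a log axis of 20 genes in the 3 DKO CCR6 libraries (red) and the 3 DKO DN libraries (blue), with the mean and SD as bars; genes higher in DKO CCR6 are on the left and genes lower in DKO CCR6 on the right. In no gene shown do the 2 groups overlap.

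The chains of the classical MHC class II molecules and their invariant chain had higher levels in DKO CCR6 libraries. They were the 4 higher genes of 11 of class II antigen presentation tested, of which 0 were lower, and the median log2 difference of the list was 0.97, against 0.0043 over all genes. The summed level of the list was 1034 to 1314 CPM in DKO CCR6 and 185 to 263 CPM in DKO DN. H2-Aa (ENSMUSG00000036594; GRCm38 chromosome 17, 34282744 to 34287823, minus strand), the class II alpha chain, was at 213, 198 and 233 CPM in DKO CCR6, against 25.6, 31.4 and 43.3 CPM in DKO DN. Each DKO CCR6 library lay above every DKO DN library, and the log2 difference was 2.68 ± 0.24 (adjusted p = 2.7e-07). Its partner chain H2-Ab1 was at 123, 109 and 141 CPM, against 18.8, 31.2 and 40.5 CPM in DKO DN (2.04 ± 0.24, adjusted p = 1.6e-05). Cd74, the invariant chain that guides class II molecules to the endosome, was at 862, 639.9 and 799 CPM in DKO CCR6, against 81.3, 73.8 and 110.5 CPM in DKO DN (3.11 ± 0.23, adjusted p = 1.5e-08). H2-Eb1, the beta chain of the other classical class II molecule, was at 46, 36.6 and 51.4 CPM, against 4.41, 9.47 and 13 CPM (2.32 ± 0.50, adjusted p = 0.013), and its call was lost without DKO CCR6 library 3, DKO DN library 1 or DKO DN library 2, up to an adjusted p of 0.104.

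The other members of the list did not pass. Ciita, the coactivator that switches on class II genes, averaged 13.6 ± 5.07 CPM in DKO CCR6 and 13.2 ± 1.28 CPM in DKO DN, with a log2 difference of 0.04 ± 0.43 (adjusted p = 1.0). The peptide-loading chains H2-DMa and H2-DMb1 differed by 0.15 ± 0.20 and 0.97 ± 0.41 log2 units (adjusted p = 1.0 and 0.48). The promoters of H2-Aa and H2-Eb1 are shown because class II promoters are known to share a Y box, whose core reads CTGATTGG on either strand. The 250 bases before each start, from RefSeq on GRCm38.p6, read 5′ to 3′ on the strand of the gene, with the match in capitals:
H2-Aa, chr17:34287824-34288073, minus strand: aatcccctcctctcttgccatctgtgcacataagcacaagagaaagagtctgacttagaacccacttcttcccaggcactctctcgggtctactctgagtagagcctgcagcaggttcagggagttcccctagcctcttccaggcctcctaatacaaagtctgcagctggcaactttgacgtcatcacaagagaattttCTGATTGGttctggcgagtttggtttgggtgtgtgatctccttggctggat
H2-Eb1, chr17:34305617-34305866, plus strand: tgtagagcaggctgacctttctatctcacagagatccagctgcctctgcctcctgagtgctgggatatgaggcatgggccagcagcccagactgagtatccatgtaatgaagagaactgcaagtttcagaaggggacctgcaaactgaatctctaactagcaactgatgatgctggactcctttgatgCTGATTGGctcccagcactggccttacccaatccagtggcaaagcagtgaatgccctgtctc
The match lay 51 bases before the start in H2-Aa and 62 bases before it in H2-Eb1. It was found in 4 of the 8 class II genes with a promoter in the table (50%), against 4.43% of all genes with one and 3.83% of all 32851 promoters. Among called genes it was found in 4 of 68 higher genes (5.88%) and 11 of 201 lower genes (5.47%). Here and below, motifs were chosen after the promoters had been read, and a match describes letters, not binding.

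Of 14 LTi-like ILC3 genes tested, 2 were higher in DKO CCR6, Ccr6 and Cd4 themselves, and 0 were lower. The median of the list was 0.99, and 12 of the 14 had DKO CCR6 libraries wholly above the DKO DN libraries, which held for 9.13% of all tested genes. The summed level was 3295 to 4094 CPM in DKO CCR6 and 1735 to 1901 CPM in DKO DN. Nrp1, the semaphorin receptor neuropilin 1, was at 225, 163 and 151 CPM, against 66.8, 53.2 and 32.4 CPM in DKO DN (1.82 ± 0.58, adjusted p = 0.17). Cxcr5, the receptor that leads lymphocytes to follicles, was at 159.6, 139 and 119 CPM, against 73.2, 70.6 and 55.9 CPM in DKO DN (1.06 ± 0.48, adjusted p = 0.57). Lta, the lymphotoxin gene that drives lymphoid tissue formation, was at 149, 161 and 177 CPM, against 102, 122 and 135 CPM (0.44 ± 0.15, adjusted p = 0.23). In these genes the groups stood apart without a pass. In a fit to the 12 CCR6 and DN libraries alone, 7 members passed as higher. That fit called more genes in general, with 284 of 19581 tested genes higher, against 92 of 21286 as reported. In WT libraries 8 of the 14 passed, all higher, against 1.95% of all tested genes. Among them were Lta (1.28 ± 0.15, adjusted p = 5.3e-06) and Kit, the stem cell factor receptor (1.41 ± 0.19, adjusted p = 3.9e-05). Kit differed by 0.36 ± 0.19 in DKO (adjusted p = 0.70). The test of the difference between genotypes did not pass for Lta (adjusted p = 0.19) or Kit (adjusted p = 0.19).

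Further genes were higher in DKO CCR6 libraries with a large difference. Foxs1, a forkhead factor, was at 75.5, 69.2 and 64.3 CPM in DKO CCR6, against 5.62, 4.27 and 4.21 CPM in DKO DN (3.89 ± 0.58, adjusted p = 2.8e-04). Hoxa7, a homeobox factor of body patterning and blood formation, was at 15.5, 14.8 and 12 CPM, against 0.639, 0.221 and 1.5 CPM (4.13 ± 0.73, adjusted p = 0.0020). Ttn, which encodes titin of the sarcomere, was at 36.3, 38.4 and 40.3 CPM, against 3.68, 3.43 and 2.85 CPM (3.53 ± 0.47, adjusted p = 5.7e-05). These 3 calls held when any library was left out. Parvb, the adhesion protein beta-parvin, was at 10.5, 9.2 and 8.38 CPM, against 0.903, 0.417 and 0.0148 CPM (4.42 ± 0.95, adjusted p = 0.012, or 0.0742 without DKO DN library 2). Platr3, a noncoding RNA, differed by 4.67 ± 0.96 and lost its call without DKO DN library 1 or 3. Idi2, an isomerase of isoprenoid synthesis, differed by 4.37 ± 0.96 and lost it without DKO CCR6 library 1 or DKO DN library 1 or 3. Fam167a and Khdrbs3 also passed, at 3.31 ± 0.80 and 3.20 ± 0.83, and lost their calls whichever of the 6 libraries was left out. Col4a1, a collagen chain of basement membranes, had 923 counts in the 3 DKO CCR6 libraries and 0 in DKO DN, at least 283-fold higher, with 3 counts over the 3 libraries as the floor, and lost its call in 5 of the 6 fits, all except the one without DKO CCR6 library 3.

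Outside the lists, 2 genes with large lower values were Gramd3, a lipid-transfer family member, and Klf5, a zinc finger factor of epithelial cells. Gramd3 was at 0, 0 and 0.229 CPM in DKO CCR6, against 21.4, 14.5 and 14.4 CPM in DKO DN (-7.93 ± 1.15, adjusted p = 1.9e-04). Klf5 had 2 counts in DKO CCR6 and 977 in DKO DN, a ratio of levels of 0.00197 (0.000238 to 0.00712) with a 95% counting interval, and lost its call without DKO CCR6 library 1, 2 or 3 or DKO DN library 3.

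A type 1 and cytotoxic programme was lower in DKO CCR6 than in DKO DN cells across most of its members. Of 34 genes tested, 25 were lower and 0 were higher, and each of the 25 stayed lower whichever of the 6 libraries was left out. The count includes Ncr1 and Klrb1c, which check the sort, and was 23 of 32 without them. The median log2 difference of the list was -3.38, and its summed level was 2204 to 2397 CPM in DKO CCR6 and 4781 to 5070 CPM in DKO DN. In bulk samples, fewer or more cells of a type and less or more RNA per cell cannot be told apart. This holds here, for the class II and other genes above and in the lists below. Ccl5 (ENSMUSG00000035042; GRCm38 chromosome 11, 83525778 to 83530518, minus strand), a chemokine of cytotoxic lymphocytes, was at 3.95, 1.26 and 1.63 CPM in DKO CCR6, against 479.6, 583 and 598 CPM in DKO DN. The highest DKO CCR6 library stayed far under the lowest DKO DN library, and the log2 difference was -7.91 ± 0.40 (adjusted p = 3.6e-11). Nkg7, a protein of cytotoxic granules, was at 10.0, 5.17 and 5.22 CPM, against 359.5, 258 and 390.3 CPM (-5.62 ± 0.32, adjusted p = 2.2e-10), and the granule protease gene Ctsw at 15.1, 12.4 and 14.1 CPM, against 184, 183 and 239 CPM (-3.87 ± 0.18, adjusted p = 1.7e-11).

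Granule proteases and the pore-forming protein were among the lower genes. Gzma had 0 counts in the 3 DKO CCR6 libraries together and 13430 counts in DKO DN, where it was at 62.4, 134 and 76 CPM. Its level was at least 4847-fold lower in DKO CCR6, taken with the same floor of 3 counts, which covers counting error only. Gzmb was at 0.247, 3.06 and 3.48 CPM in DKO CCR6, against 121, 110.3 and 82.1 CPM in DKO DN (-5.55 ± 0.64, adjusted p = 1.0e-05). Prf1, perforin, was at 5.15, 7.53 and 4.74 CPM, against 41.2, 30.6 and 33.3 CPM (-2.59 ± 0.26, adjusted p = 1.2e-06). Fasl, the death ligand of cytotoxic cells, had 2 counts in DKO CCR6 and 6940 in DKO DN, a ratio of levels of 0.000277 (3.35e-05 to 0.001), in which the range is a 95% counting interval. Gzmk had DKO CCR6 levels of 0.0658, 0 and 0 CPM, against 8.86, 14.5 and 9.65 CPM (-8.67 ± 1.37, adjusted p = 0.0012). The granzyme genes Gzmc and Gzmm did not pass, at 0.92 ± 0.61 and -0.01 ± 0.89 log2 units (adjusted p = 0.88 and 1.0).

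Chemokines and natural killer receptors were also among the 25 lower genes. Ccl4, a chemokine that draws monocytes and T cells, was at 0.494, 0.27 and 0.206 CPM in DKO CCR6, against 62.2, 101 and 125 CPM in DKO DN (-8.16 ± 0.86, adjusted p = 4.5e-06), and Ccl3 was at 0.938, 0 and 0.16 CPM, against 4.78, 13.7 and 13.8 CPM (-4.79 ± 0.80, adjusted p = 0.0012). Xcl1, lymphotactin, was at 0.0658, 0 and 0 CPM, against 18, 13.9 and 21.1 CPM (-9.32 ± 0.70, adjusted p = 2.0e-08). Of the killer lectin-like receptor genes, Klrd1 differed by -5.77 ± 0.65, Klrc1 by -2.48 ± 0.49, Klrc2 by -2.85 ± 0.41 and Klrk1, the gene of NKG2D, by -1.05 ± 0.21 log2 units (adjusted p from 7.8e-06 to 0.0067). Klrc1 and Klrc2 are close paralogs, so reads may be split between them. Klre1 had 0 counts in DKO CCR6 and 695 in DKO DN, at least 222-fold lower. Of the 9 list members without a call, the signalling genes Stat4 and Il2rb and both interleukin 18 receptor chains had log2 differences between -0.17 and -0.07.

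The promoters of Nkg7 and Xcl1 are shown because T-bet and its relative Eomes bind a T-box element, whose core reads GGTGTGA. The same 250 bases before the start, with the match to that core or its reverse complement in capitals, read:
Nkg7, chr7:43436888-43437137, plus strand: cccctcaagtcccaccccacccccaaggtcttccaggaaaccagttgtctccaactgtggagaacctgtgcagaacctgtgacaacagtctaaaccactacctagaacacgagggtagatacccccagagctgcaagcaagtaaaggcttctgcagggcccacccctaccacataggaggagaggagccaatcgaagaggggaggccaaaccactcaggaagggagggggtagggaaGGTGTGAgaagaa
Xcl1, chr1:164935523-164935772, minus strand: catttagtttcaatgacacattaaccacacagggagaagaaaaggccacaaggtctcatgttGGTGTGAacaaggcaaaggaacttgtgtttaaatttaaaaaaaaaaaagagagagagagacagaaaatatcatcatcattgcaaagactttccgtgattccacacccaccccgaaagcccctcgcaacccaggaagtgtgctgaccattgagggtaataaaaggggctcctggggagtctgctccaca
A match was found in 5 of the 26 type 1 genes with a promoter in the table (19.2%), against 3.33% of all promoters and 3.84% of all genes. Among called genes it was found in 1 of 68 higher genes (1.47%) and 9 of 201 lower genes (4.48%).

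The list of NKp46 ILC3 genes, of which 13 of 15 also stand on the type 1 list, had 13 of 15 lower and 0 higher, with a median of -3.99. Its summed level was 623 to 760 CPM in DKO CCR6 and 1300 to 1429 CPM in DKO DN, and all 13 calls held whichever library was left out. Without Ncr1 and Klrb1c the count was 11 of 13. Slc6a20a, an amino acid transporter, is its member outside the type 1 list that passed, at 0.0988, 0.162 and 0.0458 CPM in DKO CCR6, against 2.14, 3.34 and 2 CPM in DKO DN (-4.52 ± 0.61, adjusted p = 7.5e-05). The part of cells of the NKp46 population in these values was not tested. Ncr1, which defines that population, was at 29.1 to 52.1 CPM in DKO DN, against 397 to 551 CPM in DKO NKp46 libraries.

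Among 30 lineage transcription factors of innate lymphoid cells, 5 were lower and 0 were higher in DKO CCR6, with a median of -0.10. Tbx21, the gene of T-bet, was at 0.839, 1.19 and 3.5 CPM in DKO CCR6, against 29.7, 17.7 and 15.3 CPM in DKO DN (-3.53 ± 0.59, adjusted p = 9.9e-04). Prdm1, the gene of the repressor Blimp-1, was at 4.89, 4.68 and 4.33 CPM, against 32.6, 19.1 and 13.3 CPM (-2.22 ± 0.31, adjusted p = 1.1e-04). Lef1, a partner of beta-catenin, was at 20.0, 36.1 and 39.6 CPM, against 70.8, 72.1 and 89.4 CPM (-1.28 ± 0.20, adjusted p = 4.4e-04). In all 3 genes the groups stood apart and no single library decided the call. Gata3, which ILC2 need most and all helper-like innate lymphoid cells use, differed by -0.76 ± 0.16 (adjusted p = 0.0093) and lost its call without DKO CCR6 library 2 or 3 or DKO DN library 1 or 3. Zbtb16, the gene of PLZF, differed by -1.13 ± 0.27 (adjusted p = 0.031) and lost it in every fit but that without DKO DN library 1. Of the 5 genes, 3 kept the call without DKO CCR6 library 2 or 3 or DKO DN library 3, and 4 kept it in the other fits. The general factors Id2, Rora, Runx3 and Tox differed by 0.09, -0.20, -0.10 and 0.00 log2 units and did not pass. Eomes, the relative of T-bet, had 3 counts in DKO CCR6 and 97 in DKO DN, and did not pass (adjusted p = 0.30).

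Of 20 cytokine genes tested, 8 were lower and 1 was higher in DKO CCR6, with a median of -0.84. Ifng, interferon gamma, was at 4.82, 5.08 and 6.71 CPM, against 57.1, 43.2 and 54.6 CPM in DKO DN (-3.22 ± 0.50, adjusted p = 4.5e-04). Il4, a type 2 cytokine, was at 0.329, 0.864 and 0.756 CPM, against 14.6, 15.8 and 22.2 CPM (-4.76 ± 0.67, adjusted p = 1.2e-04), and Il2, a lymphocyte growth factor, at 6.75, 5.74 and 4.17 CPM, against 13.6, 14 and 17.1 CPM (-1.42 ± 0.27, adjusted p = 0.0035). Il13, also of the type 2 response, had 0 counts in DKO CCR6 and 200 in DKO DN, at least 65.6-fold lower. These 4 calls held whichever library was left out. Of the 8 lower genes the call was kept by 4 without DKO CCR6 library 1 or DKO DN library 1, 5 without DKO CCR6 library 2 or DKO DN library 3 and 6 in the other fits. The further lower genes were Tnfsf10, the death ligand TRAIL, at -1.10 ± 0.23, Tnfsf14, the ligand LIGHT, at -0.68 ± 0.17, Il21, with 0 counts in DKO CCR6 and 82 in DKO DN, and Il5, with 2 and 327 counts. The single higher cytokine was Il17a, which recruits neutrophils through epithelial cells. It was at 135, 135 and 159 CPM in DKO CCR6, against 22.5, 26.1 and 20.1 CPM in DKO DN. The libraries stood apart, and the log2 difference was 2.64 ± 0.65 (adjusted p = 0.040). The call was lost in each of the 6 fits that left out a library, at adjusted p of 0.115 to 0.218. The other signature cytokines of ILC3 did not pass. Il17f averaged 821 ± 97.9 CPM in DKO CCR6 and 649.8 ± 214 CPM in DKO DN (adjusted p = 1.0), and Il22, which acts on the epithelium, 1342 ± 175 and 1105 ± 238 CPM (adjusted p = 1.0).

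Il17a and Ccr6 were both higher in DKO CCR6 than in DKO DN, and REV-ERB and ROR receptors bind elements built on the half-site AGGTCA. Their promoters are shown for that reason. On the strand of each gene, with the match to AGGTCA or its reverse complement in capitals, they read:
Ccr6, chr17:8235793-8236042, plus strand: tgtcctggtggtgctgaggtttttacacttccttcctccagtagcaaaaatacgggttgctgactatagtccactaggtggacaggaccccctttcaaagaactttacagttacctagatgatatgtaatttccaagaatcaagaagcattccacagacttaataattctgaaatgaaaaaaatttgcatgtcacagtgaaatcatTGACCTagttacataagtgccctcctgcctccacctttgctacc
Il17a, chr1:20730655-20730904, plus strand: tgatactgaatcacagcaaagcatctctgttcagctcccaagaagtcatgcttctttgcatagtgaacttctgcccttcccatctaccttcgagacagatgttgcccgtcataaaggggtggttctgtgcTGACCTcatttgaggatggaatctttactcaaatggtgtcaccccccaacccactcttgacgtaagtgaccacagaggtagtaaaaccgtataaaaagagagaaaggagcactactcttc
The match lay 44 bases before the start in Ccr6 and 120 bases before it in Il17a. The half-site was found in 16 of 68 higher genes with a promoter in the table (23.5%) and in 22 of 201 lower genes (10.9%), against 15.8% of all genes and 14% of all promoters.

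Of 30 cytokine receptor genes, 4 were lower and 1 was higher. Il12rb2, through which interleukin 12 drives type 1 responses, was at 0.593, 0.756 and 0.55 CPM in DKO CCR6, against 17.3, 5.22 and 7.84 CPM in DKO DN (-3.99 ± 0.58, adjusted p = 2.3e-04). Il21r, the interleukin 21 receptor, was at 0.148, 0 and 0 CPM, against 18.7, 20.4 and 13.8 CPM (-8.25 ± 1.15, adjusted p = 1.2e-04). Both calls held whichever library was left out, and without DKO CCR6 library 3 they were the only lower ones. Il9r differed by -5.84 ± 1.25 (adjusted p = 0.014) and lost its call without DKO CCR6 library 1 or 3, and Il10ra differed by -3.36 ± 0.81 (adjusted p = 0.031) and lost it without DKO CCR6 library 2 or 3 or DKO DN library 1 or 3. Il17re, a receptor for interleukin 17C, was the higher gene at 0.51 ± 0.13 (adjusted p = 0.038), a call lost whichever library was left out. Il23r, the receptor for interleukin 23 that sustains ILC3 cytokines, averaged 161 ± 15.7 CPM in DKO CCR6 and 99.1 ± 10.9 CPM in DKO DN, with separate libraries and no pass (adjusted p = 0.074).

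Of 24 chemokine and homing receptor genes tested, 6 were lower and 1, Ccr6 itself, was higher in DKO CCR6, with a median of -0.23. Cxcr3, which answers to interferon-induced chemokines, was at 24.5, 16.5 and 20.5 CPM in DKO CCR6, against 132, 119 and 128 CPM in DKO DN (-2.62 ± 0.18, adjusted p = 5.9e-09). Ccr9, the receptor for the gut chemokine CCL25, was at 80.4, 63.8 and 83.1 CPM, against 323, 207 and 276 CPM (-1.83 ± 0.22, adjusted p = 1.4e-05). In both of these genes every DKO CCR6 library was under every DKO DN library. Ccr2, which responds to monocyte chemoattractants, differed by -1.48 ± 0.18 (adjusted p = 2.3e-05) and Gpr55, a lysophospholipid receptor, by -4.69 ± 0.92 (adjusted p = 0.0051). Ccr8, found on ILC2 and regulatory T cells, differed by -3.09 ± 0.68 (adjusted p = 0.014) and lost its call without DKO CCR6 library 1 or 2 or DKO DN library 1 or 3.

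Of 16 integrin genes, 3 were lower and 0 were higher, and those 3 stayed lower whichever library was left out. Itga1, a collagen-binding chain of resident lymphocytes, was at 0.198, 0.36 and 0.16 CPM in DKO CCR6, against 8.02, 5.94 and 11.7 CPM in DKO DN (-5.13 ± 0.49, adjusted p = 7.3e-07). Itgae, the CD103 chain that binds E-cadherin, was at 2.53, 3.08 and 2.57 CPM, against 45.4, 35.7 and 24 CPM (-3.68 ± 0.65, adjusted p = 0.0020), and Itgax, CD11c, at 0.0165, 0 and 0.137 CPM, against 1.39, 4.42 and 2.12 CPM (-5.78 ± 0.98, adjusted p = 0.0012). Of 23 TGF-beta and residency genes, which include Itga1 and Itgae, 4 were lower and 0 were higher. Rgs1, which dampens chemokine receptor signals, was at 976, 987 and 931 CPM, against 1965, 1941 and 2164 CPM (-1.07 ± 0.19, adjusted p = 0.0019). Zfp683, the gene of the residency factor Hobit, had 0 counts in DKO CCR6 and 90 in DKO DN, at least 34.4-fold lower. The TGF-beta receptor genes Tgfbr1 and Tgfbr2 differed by 0.20 and 0.00 log2 units and did not pass.

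Of 14 T cell receptor complex genes tested, out of 18 symbols listed, 9 were lower and 0 were higher, with a median of -1.08 and a summed level of 1879 to 2150 CPM in DKO CCR6 and 2979 to 3334 CPM in DKO DN. No tested member of the list was at 0 in either group. Trac, the constant gene of the alpha chain, was at 19.4, 11.2 and 13.3 CPM in DKO CCR6, against 93.8, 57.1 and 71.1 CPM in DKO DN (-2.34 ± 0.31, adjusted p = 6.0e-05). Trbc1 was at 120.1, 122 and 132 CPM, against 271, 235 and 278 CPM (-1.07 ± 0.10, adjusted p = 5.3e-07), and shares much of its sequence with Trbc2, so reads may be split between them. Cd8a, a coreceptor of cytotoxic T cells, was at 0.0165, 0.054 and 0.0458 CPM, against 40.5, 34 and 16.7 CPM (-9.55 ± 1.12, adjusted p = 1.3e-05). Cd8b1 had 1 count in DKO CCR6 and 5065 counts in DKO DN, a ratio of levels of 0.00019 (4.80e-06 to 0.00106). Cd3e, a signalling chain of the complex, averaged 84.3 ± 10.9 CPM in DKO CCR6 and 181 ± 28.9 CPM in DKO DN and did not pass (adjusted p = 0.092). Of the 9 genes the call was kept by 6 without DKO CCR6 library 1, 5 without DKO CCR6 library 2 and 5 without DKO DN library 3. ILC are known to transcribe unrearranged receptor constant genes, and the part of T cells in these values was not tested.

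Of 22 T cell signalling and surface genes, 11 were lower and 0 were higher, with a median of -1.33, while the summed level was 4037 to 4248 CPM in DKO CCR6 and 4448 to 4732 CPM in DKO DN. Lck, the kinase that starts T cell receptor signalling, was at 123, 118 and 106 CPM in DKO CCR6, against 372, 296 and 338 CPM in DKO DN (-1.53 ± 0.19, adjusted p = 2.0e-05). Cd2, an adhesion receptor, was at 1.96, 1.03 and 1.83 CPM, against 19.5, 13.3 and 17.1 CPM (-3.37 ± 0.42, adjusted p = 2.3e-05), and Skap1, an adaptor that links receptors to integrins, at 218, 173 and 197 CPM, against 317, 323 and 343 CPM (-0.74 ± 0.11, adjusted p = 2.7e-04). Libraries of the groups did not overlap in any of these. Cd40lg and Cd28, which carry T cell help and costimulation, differed by -3.05 ± 0.57 and -3.93 ± 0.73 (adjusted p = 0.0034 and 0.0029). Lat, an adaptor of T cell receptor signalling, went the other way without passing (0.37 ± 0.16, adjusted p = 0.51). It was at 2203, 2160 and 2091 CPM in DKO CCR6, against 1579, 1941 and 1486 CPM in DKO DN. In WT its difference was -0.86 ± 0.16 (adjusted p = 0.0012). The difference between genotypes passed at 1.23 ± 0.22 (adjusted p = 0.025), though not in every fit that left out a library. Of the 11 genes 7 kept the call without DKO CCR6 library 1. Of 13 gamma delta T cell genes, 3 were lower and 1 was higher, and none of these 4 calls held in every fit that left out a library. The lower genes were Trdc at -1.13 ± 0.25, Cd27 at -2.33 ± 0.51 and Zbtb16, and the higher gene was Blk, a kinase of B cells and some gamma delta T cells, at 2.94 ± 0.66 (adjusted p = 0.021). Trdc and Cd27 lost their calls without DKO CCR6 library 1 or DKO DN library 3, Trdc also without DKO CCR6 library 2 and Cd27 without DKO CCR6 library 3, and Blk lost it in all fits but that without DKO CCR6 library 2.

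ILC2 genes had 10 of 20 lower and 1 higher, with a median of -2.84, and the summed level overlapped between the groups, at 1330 to 1694 CPM in DKO CCR6 and 1443 to 1951 CPM in DKO DN. Klrg1, a surface receptor of ILC2 and of cytotoxic cells, was at 2.4, 2.74 and 2.79 CPM in DKO CCR6, against 44.3, 23.3 and 31.7 CPM in DKO DN (-3.65 ± 0.49, adjusted p = 6.3e-05). Hs3st1, a heparan sulfate sulfotransferase, was at 0, 1.39 and 0 CPM, against 65.6, 33.5 and 77 CPM (-6.95 ± 1.19, adjusted p = 0.0022). Il1rl1, the interleukin 33 receptor by which ILC2 are often recognised, was at 1.23, 1.26 and 0.344 CPM, against 8.33, 3.85 and 4.94 CPM, and did not pass (adjusted p = 0.29). Cd81, a tetraspanin, was the higher member at 1.997 ± 0.50 (adjusted p = 0.042), and lost its call whichever library was left out. Of the 10 lower genes, 9 kept the call without DKO DN library 2 and 6 in each of the other 5 fits. The part of ILC2 in these values was not tested.

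Of 10 B and plasma cell genes, Ighm, the IgM heavy chain, was lower, at 33.6, 33.3 and 32.8 CPM in DKO CCR6, against 158, 126 and 157 CPM in DKO DN (-2.15 ± 0.20, adjusted p = 5.0e-07), and the summed level was 77.5 to 140.0 CPM in DKO CCR6, against 245 to 588 CPM in DKO DN. In both groups these sums were well above the Ighm level. The rest came from other members of the list, of which none passed. Cd79a, the antigen receptor chain that defines B cells, had 0.625, 0.036 and 0.389 CPM in DKO CCR6 and 0.0661, 0.368 and 1.02 CPM in DKO DN. Of 17 myeloid genes 2 were lower, Itgax and Fcgr3, an Fc receptor also of natural killer cells, whose call was lost in 5 of the 6 fits, all but that without DKO DN library 2. The sums of that list were 296 to 351 CPM in DKO CCR6 and 352 to 372 CPM in DKO DN. Of 13 epithelial genes Cdh1, E-cadherin, was lower, with 2 counts in DKO CCR6 and 1353 in DKO DN, a ratio of levels of 0.00142 (0.000172 to 0.00514). The sums of that list were 20.1 to 39.3 CPM in DKO CCR6 and 42.9 to 64.6 CPM in DKO DN, and Epcam, the general epithelial marker, was at 0, 0.036 and 0.298 CPM in DKO CCR6 and 0.441, 0.858 and 0.148 CPM in DKO DN. Of 14 stromal and endothelial genes Col4a1 was higher, with sums of 320 to 406 CPM in DKO CCR6 and 295 to 369 CPM in DKO DN. The part of these cells in the results was not tested.

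Of 22 checkpoint and costimulatory receptor genes, 12 were lower and 0 were higher, with a median of -1.05, and 9 of the 12 stayed lower whichever library was left out. Cd244a, the receptor 2B4 of natural killer cells, was at 10.7, 9.56 and 9.09 CPM in DKO CCR6, against 39.1, 42.6 and 47.6 CPM in DKO DN (-2.14 ± 0.19, adjusted p = 2.2e-07). Cd160, an inhibitory receptor that binds HVEM, was at 151, 123 and 149.9 CPM, against 394, 396 and 420.3 CPM (-1.51 ± 0.15, adjusted p = 1.4e-06). Ctla4, which competes with CD28 for its ligands, was at 1.79, 3.03 and 4.35 CPM, against 25.6, 17.2 and 16.7 CPM (-2.70 ± 0.38, adjusted p = 1.5e-04). Tigit, an inhibitory receptor of the nectin family, was at 0.395, 0.468 and 0.0458 CPM, against 9.67, 7.19 and 10.2 CPM (-4.85 ± 0.82, adjusted p = 0.0012). None of these had overlapping groups. Pdcd1, the gene of PD-1, differed by 1.22 ± 0.75 and did not pass (adjusted p = 0.83).

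Among 20 genes of the BCL2 family and death receptors, 4 were lower and 1 was higher. Beside Fasl, the lower genes were Bcl2a1d at -2.40 ± 0.29 (adjusted p = 1.8e-05), Bcl2a1b at -1.50 ± 0.29 and Bcl2a1a at -1.85 ± 0.43, copies of a survival gene so alike that reads may be split between them. Bcl2a1b lost its call without DKO DN library 3, when 2 of the 4 lower genes kept theirs, and Bcl2a1a in every fit but that without DKO DN library 2. Bcl2, which also protects from cell death, was the higher gene, at 276, 266 and 294 CPM in DKO CCR6, against 177, 177 and 208 CPM in DKO DN (0.57 ± 0.13, adjusted p = 0.023), and kept its call in 1 of the 6 fits, the one without DKO DN library 3.

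Of 22 core clock and output genes, 0 passed edgeR's test, as in DESeq2 and limma voom, with 2 at an unadjusted p under 0.05 and a median of 0.13. Of all 21286 tested genes, 8.04% had an unadjusted p under 0.05 by edgeR, and DESeq2 called 633 and limma voom 642. By edgeR 1.35% of all tested genes were called lower and 0.432% higher. These shares stand beside the counts here and in the next paragraph. Arntl, the activator whose gene REV-ERBs repress, averaged 86.2 ± 9.44 CPM in DKO CCR6 and 72.1 ± 9.57 CPM in DKO DN (0.26 ± 0.28, adjusted p = 1.0), and Nfil3, another known REV-ERB target, 172 ± 7.66 and 156 ± 1.29 CPM (0.15 ± 0.22, adjusted p = 1.0). A list of 12 genes picked because earlier results of these data had them strongly raised in DKO held 0 calls between CCR6 and DN by edgeR, 0 by DESeq2 and 2 by limma voom, with 1 at an unadjusted p under 0.05 and sums of 2648 to 2850 CPM in DKO CCR6 and 2536 to 3069 CPM in DKO DN. Glycolysis had 1 of 23 higher, Ldhb, a lactate dehydrogenase chain, at 1.29 ± 0.33 (adjusted p = 0.044). Oxidative phosphorylation had 0 of 25 by edgeR, DESeq2 and limma voom, and 1 at an unadjusted p under 0.05. Fatty acid metabolism had 1 of 24 lower, the elongase gene Elovl6 at -0.79 ± 0.18 (adjusted p = 0.017). Cholesterol synthesis had 2 of 21 lower, among them the demethylase gene Cyp51 at -1.30 ± 0.33 (adjusted p = 0.046). Ldhb, Elovl6 and Cyp51 lost their calls in each of the 6 fits.

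Cytosolic ribosomal protein genes had 0 of 25 called by edgeR, DESeq2 and limma voom, 6 at an unadjusted p under 0.05 and a median of -0.21, with 19 of 25 lower in every DKO CCR6 library than in any DKO DN library, against 9.50% of all tested genes. In WT, 19 of the 25 passed as lower, against 3.89% of all tested genes, with a median of -0.52. The test of the difference between genotypes passed for 0 of the 25. Proliferation genes had 0 of 24 called by edgeR, 1 by DESeq2 and 0 by limma voom, 2 at an unadjusted p under 0.05 and a median of -0.42. Interferon-stimulated genes had 1 of 23 higher, Bst2, the antiviral protein tetherin, at 0.77 ± 0.20 (adjusted p = 0.049), and 1 lower, Ifi27l2a, at -3.05 ± 0.78 (adjusted p = 0.046). Notch pathway genes had 1 of 17 higher, the ligand gene Dll1, at 49.3, 61.5 and 52.5 CPM in DKO CCR6, against 10.7, 13.7 and 8.3 CPM in DKO DN (2.32 ± 0.50, adjusted p = 0.012). Neuropeptide and metabolite receptors had 1 of 22 higher, Ramp1, a part of the CGRP receptor, at 592, 526 and 453 CPM, against 257, 275 and 258 CPM (0.99 ± 0.23, adjusted p = 0.020). Immediate early genes had 1 of 22 higher, the stress factor gene Atf3, at 1.38 ± 0.30 (adjusted p = 0.013). NF-kB genes had 0 of 17 by edgeR, 3 by DESeq2 and 2 by limma voom. An unadjusted p under 0.05 by edgeR was found for 8, of which 6 were higher and 2 lower, against 8.04% of all tested genes. Dll1 lost its call without DKO CCR6 library 2 or DKO DN library 1 or 3, Atf3 without DKO CCR6 library 1 or 2 or DKO DN library 3, Bst2 and Ramp1 each in 5 of the 6 fits, with a pass without DKO CCR6 library 3, and Ifi27l2a in all 6.

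**Figure D3:**
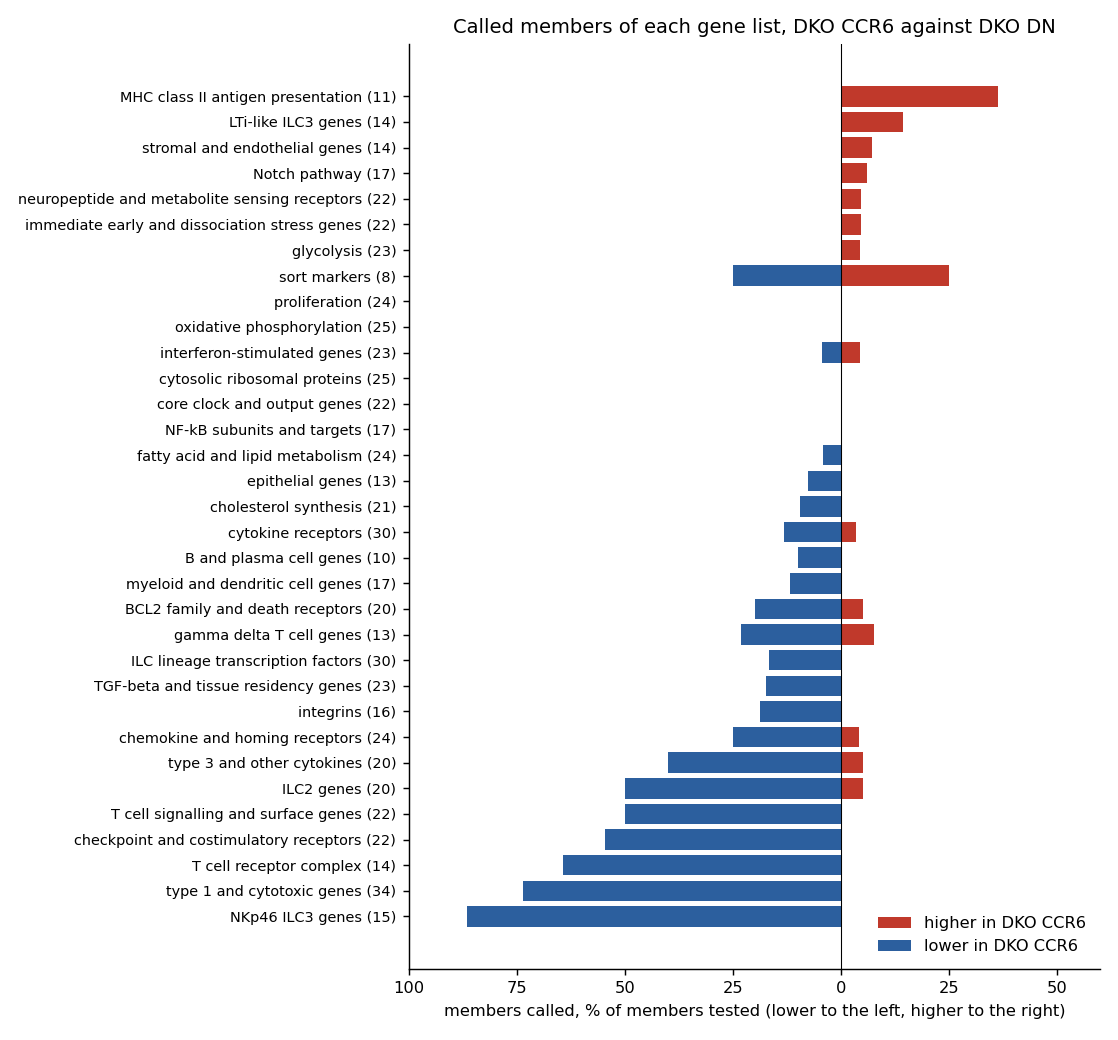
Share of tested members of each gene list (number tested in brackets) that passed as higher (red, to the right) or lower (blue, to the left) in DKO CCR6 against DKO DN, in percent on the horizontal axis. The lists were chosen with earlier results of these data known. The lists of NKp46 ILC3 and of type 1 and cytotoxic genes, which share 13 genes, reach farthest to the left with 13 of 15 and 25 of 34, and MHC class II reaches farthest to the right with 4 of 11; 1.35% of all tested genes were lower and 0.432% higher.

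The same contrast in WT mice called more genes. Of the 21286 genes, 1243 (5.84%) passed between WT CCR6 and WT DN libraries, 415 higher (1.95%) and 828 lower (3.89%). Of the 92 genes higher in DKO, 71 (77.2%) were also called higher in WT, and they made up 17.1% of the 415. Of the 288 genes lower in DKO, 231 (80.2%) were also called lower in WT, 27.9% of the 828. The sign in WT was the same for 91 of the 92 and 278 of the 288 genes. The median log2 difference of the 92 genes was 2.005 in DKO and 1.97 in WT, and that of the 288 genes was -1.92 in DKO and -2.05 in WT. These genes were chosen by their DKO values, so the medians are given side by side without a comparison. The type 1 list had 25 of 34 lower in DKO and 24 of 34 in WT, and the class II list 4 of 11 higher in each.

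A gene past the threshold in WT and not in DKO is not thereby shown to differ, and the difference of the contrasts was tested itself. It passed for 27 genes, which is 0.127% of those tested, 19 with a higher value in DKO (0.0893%) and 8 with a lower one (0.0376%), and 1384 genes had an unadjusted p under 0.05. Of the 27 genes, 6 passed whichever of the 12 libraries was left out, and without WT ILC1 library 2 the test passed for 68 genes. The 6 were Cd7, Socs2, Ccnd2, Add3, Tm9sf2 and Trdv4.

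Cd7 (ENSMUSG00000025163; GRCm38 chromosome 11, 121036747 to 121039418, minus strand), a surface glycoprotein of T and innate lymphocytes, had the reverse order in the genotypes. It was at 69.2, 56.7 and 69.3 CPM in DKO CCR6, against 188, 207 and 199.9 CPM in DKO DN (-1.61 ± 0.16, adjusted p = 1.5e-06). In WT it was at 404, 551 and 398 CPM in CCR6, against 209.8, 286 and 211 CPM in DN (0.94 ± 0.16, adjusted p = 5.3e-04). DKO CCR6 libraries were the lowest of the 4 groups and WT CCR6 libraries the highest, while both DN groups lay near each other. The contrasts differed by -2.54 ± 0.23 (adjusted p = 4.9e-06). Add3, an adducin of the membrane skeleton, reversed in the other direction. It was at 161, 154 and 150.5 CPM in DKO CCR6, against 100.5, 82.6 and 65.5 CPM in DKO DN, and at 31, 40.6 and 46.3 CPM in WT CCR6, against 88.7, 75.8 and 68 CPM in WT DN. The contrasts were 0.91 ± 0.19 in DKO (adjusted p = 0.010, lost without DKO CCR6 library 1 or DKO DN library 3) and -0.98 ± 0.19 in WT (adjusted p = 0.0020), and they differed by 1.88 ± 0.27 (adjusted p = 0.0033).

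Socs2, a feedback inhibitor of cytokine signalling, was lower in CCR6 than in DN cells in both genotypes, by less in DKO. It was at 36, 47.1 and 63.9 CPM in DKO CCR6 and 83.2, 89.7 and 110.4 CPM in DKO DN (-0.95 ± 0.17, adjusted p = 0.0020), and at 18.1, 19 and 22 CPM in WT CCR6 and 132, 165 and 168 CPM in WT DN (-2.98 ± 0.18, adjusted p = 6.0e-10). The contrasts differed by 2.03 ± 0.24 (adjusted p = 2.2e-04). Ccnd2, a cyclin of cell cycle entry and a gene chosen after its values were seen, averaged 606 ± 5.11 CPM in DKO CCR6 and 868 ± 11.6 CPM in DKO DN, and 229 ± 9.15 CPM in WT CCR6 and 831 ± 131 CPM in WT DN, with a difference of contrasts of 1.34 ± 0.16 (adjusted p = 2.2e-04). Tm9sf2, an endosomal membrane protein, was at 119.7, 118 and 117 CPM in DKO CCR6 and 88.3, 61.1 and 57 CPM in DKO DN, and at 296, 298 and 365 CPM in WT CCR6 and 68.5, 81.6 and 53.9 CPM in WT DN. It was higher in CCR6 cells of WT mice by 2.23 ± 0.17 and of DKO mice by 0.78 ± 0.16, with a difference of -1.45 ± 0.23 (adjusted p = 0.0098), and its DKO call was lost without DKO DN library 2 or 3. Trdv4, a variable segment of the T cell receptor delta locus, also chosen after its values were seen, averaged 5.31 ± 2.1 CPM in DKO CCR6 and 11.6 ± 2.47 CPM in DKO DN, and 3.22 ± 1 CPM in WT CCR6 and 70.2 ± 14 CPM in WT DN, with a difference of 3.31 ± 0.49 (adjusted p = 0.0040).

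**Figure D4:**
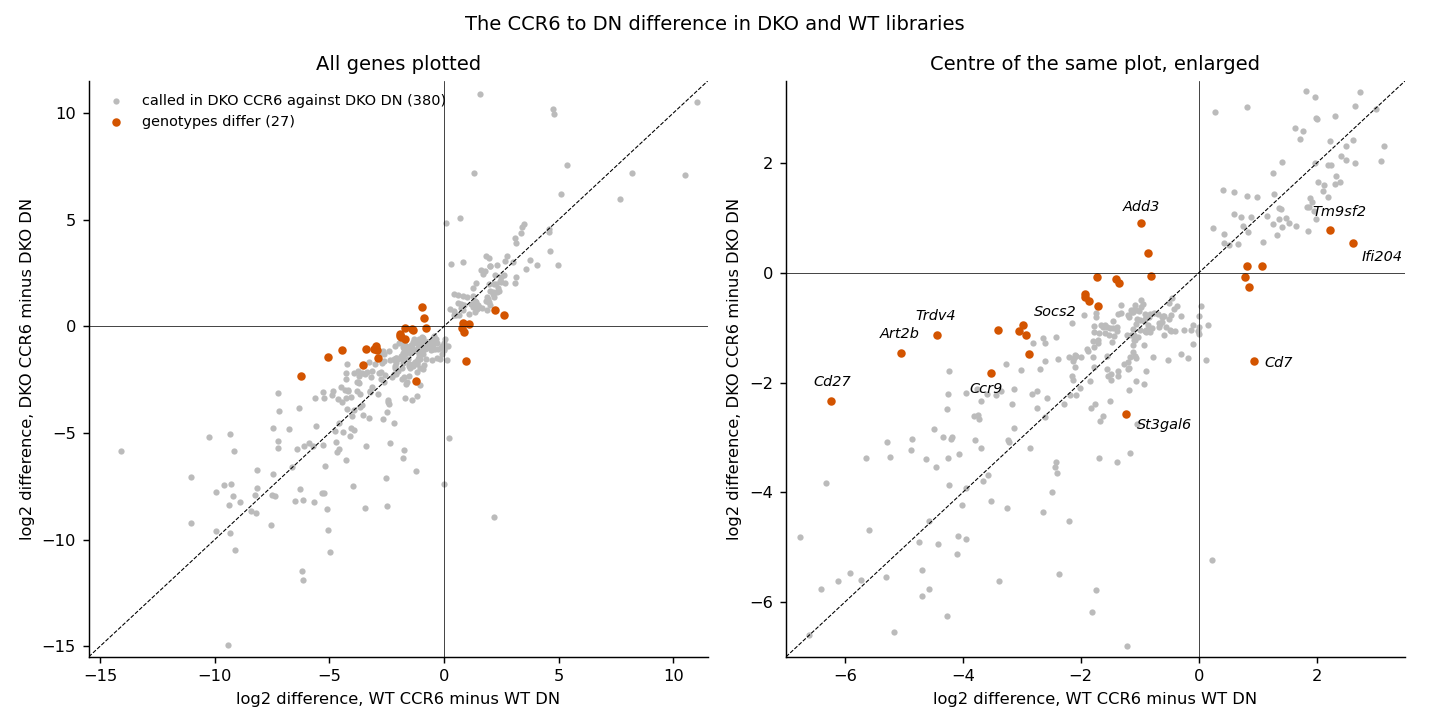
Log2 difference between CCR6 and DN libraries in DKO (vertical axis) and in WT (horizontal axis) for the 380 genes called in DKO (grey) and the 27 genes whose difference between genotypes passed (orange), over the whole range on the left and enlarged on the right, with the line of equal values dashed. Cd7 lies in the quadrant lower in DKO CCR6 and higher in WT CCR6, and Add3 in the opposite one.

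**Figure D5:**
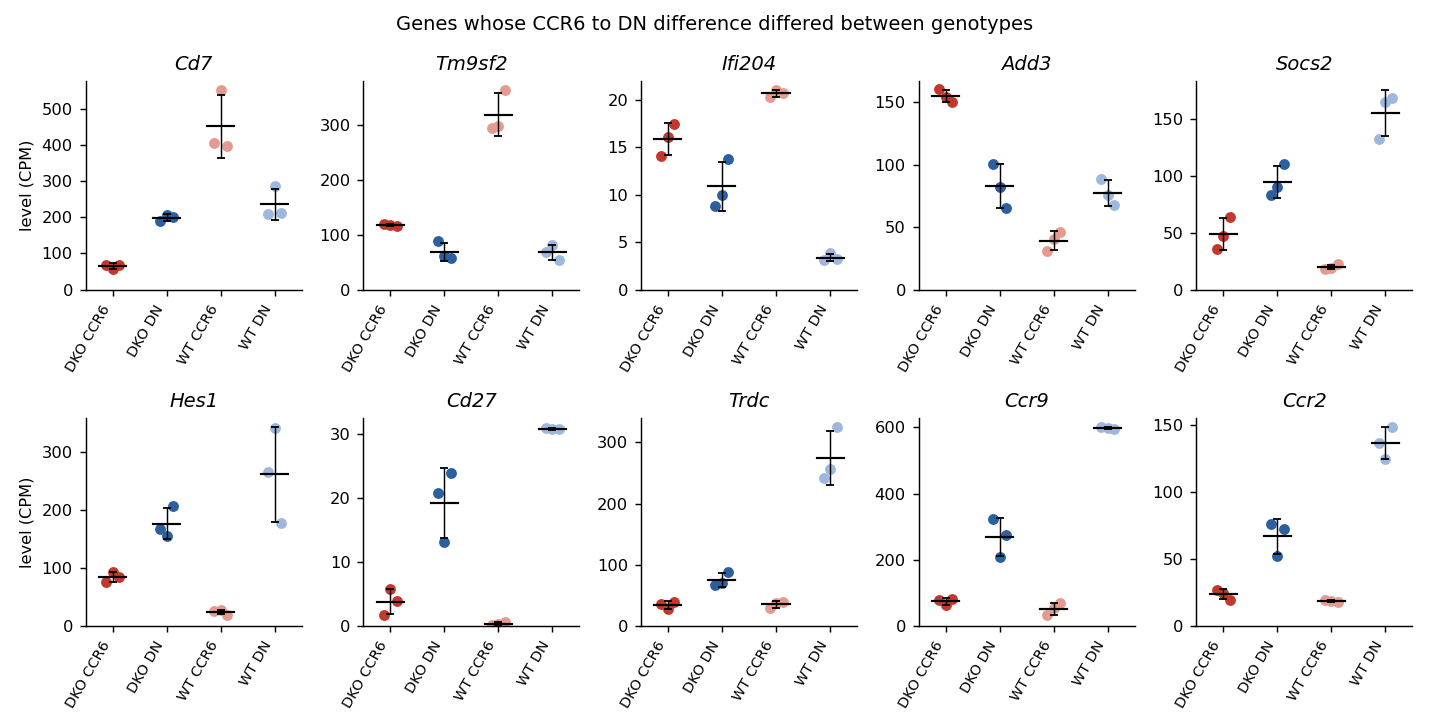
Levels in CPM (vertical axes from 0) of 10 genes with a difference between genotypes in DKO CCR6 (dark red), DKO DN (dark blue), WT CCR6 (light red) and WT DN (light blue) libraries, with mean and SD bars over 3 libraries. Cd7 is lowest in DKO CCR6 and highest in WT CCR6, and Cd27, Trdc, Ccr9 and Ccr2 are highest in WT DN.

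T cell receptor complex genes had a larger median difference in WT than in DKO. All 14 tested members were called lower in WT CCR6, with a median of -2.50, against 9 and -1.08 in DKO, and the summed level was 1410 to 1549 CPM in WT CCR6 and 4625 to 4889 CPM in WT DN. Of all tested genes, 3.89% were called lower in WT and 1.35% in DKO. The difference of the contrasts passed for 1 of the 14, Trdc, the delta chain constant gene, at 1.81 ± 0.35 (adjusted p = 0.034). That call was lost in 11 of the 12 fits that left out a library. Whether the share of T cells in the DN gate differed between genotypes was not tested.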

How the data were processed

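The deposited table held raw counts, whole numbers of reads for each Ensembl gene, and the authors' column names gave each library's group. Tools listed in the submitters' processing notes are STAR 2.7.9a, featureCounts 2.0.3 with Subread, Salmon 1.5.2, R 4.1 with DESeq2, and bcl2fastq, and the build is mm10. The part each tool played, the annotation and whether strand was used are not given there, so reads of overlapping genes on opposite strands may not be told apart. Per the labels, RNA (10 ng, integrity number above 8) was amplified with a SMARTer low-input kit in 12 to 15 cycles, with no molecular identifiers named, and intervals and floors cover counting error only.

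Of 55774 rows, 168 IDs stood on several rows (455 rows) and the table was reduced to 1 row for each of 55487 IDs. GENCODE M21 (GRCm38) gave coordinates for 55141 IDs. In edgeR 4.0.16 (R 4.3.3), TMM factors and the expression filter by group left 21286 genes to test. A robust quasi-likelihood model with 1 mean for each of 8 groups was fitted to all 24 libraries (16 residual degrees of freedom, common biological coefficient of variation 0.573), so the groups shared their spread. The contrasts were CCR6 minus DN in DKO, the same in WT, and their difference. Adjusted p-values are Benjamini-Hochberg adjusted over all tested genes, genes were called under 0.05, and SE is the log2 difference divided by the root of F. CPM are counts per 1000000 with these factors. On data simulated from these libraries over 20434 genes, 27, 42, 43 and 48 of 50 genes changed by 1, 2, 3 and 4 log2 units were called in DKO CCR6 against DKO DN. In the simulation all groups had the same means apart from the changed genes, and genes of very low level were not changed. No replicate pair came within counting noise. DESeq2 1.42.0, limma voom 3.58.1, other library sets, scalings and filters were alternatives.

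The 34 gene lists (599 symbols, 595 in the table) and all genes named were chosen with earlier results of these data known. Names follow a rule: the targeted genes, Vav1 and sort markers, 12 genes each way by size among called genes with separate libraries and 5 CPM, 3 called members of each list by adjusted p, and 6 each way for the difference between genotypes. Some genes that the rule names are not reported here. Other list members are named to describe their list and were chosen after their values were seen. A gene with 0 counts in a group is set against 3 counts over the group.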

Additional observations from a re-analysis of the deposited data

Results flagged for a closer look

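For 15 of the named genes the difference between CCR6 and DN cells differed between libraries labelled DKO and WT by the test of the difference of contrasts (edgeR's quasi-likelihood test, Benjamini-Hochberg adjusted over 21286 genes). Values below are the contrast in DKO minus that in WT, log2 ± SE. The values of Cd7 at -2.54 ± 0.23 (adjusted p = 4.9e-06), Add3 at 1.88 ± 0.27 (adjusted p = 0.0033), Socs2 at 2.03 ± 0.24 (adjusted p = 2.2e-04) and Tm9sf2 at -1.45 ± 0.23 (adjusted p = 0.0098) passed whichever of the 12 libraries was left out.

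Cd27, a TNF receptor family member of T and NK cells, had the largest value of the 15, 3.90 ± 0.73 (adjusted p = 0.030). It was at 1.83, 5.74 and 3.94 CPM in DKO CCR6 and 20.8, 13.2 and 23.9 CPM in DKO DN, and at 0.133, 0.341 and 0.716 CPM in WT CCR6 and 31, 30.8 and 30.8 CPM in WT DN, and the call was lost in 10 of the 12 fits. Art2b, an ADP-ribosyltransferase of the cell surface, was at 34.5, 20.4 and 28 CPM in DKO CCR6 and 97.1, 56.1 and 74 CPM in DKO DN, and at 1.33, 2.94 and 2.53 CPM in WT CCR6 and 63.4, 94.2 and 69.8 CPM in WT DN, with a difference of 3.59 ± 0.59 (adjusted p = 0.013), lost without DKO DN library 2 or 3. Hes1, a repressor induced by Notch, was at 76.1, 93.9 and 84.9 CPM in DKO CCR6 and 167, 155 and 206 CPM in DKO DN, and at 26.7, 27.4 and 19.9 CPM in WT CCR6 and 265, 339.9 and 178 CPM in WT DN, with a difference of 2.35 ± 0.40 (adjusted p = 0.016), lost without DKO DN library 2, WT CCR6 library 3 or WT DN library 2.

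Bcl11b, a factor of T cells and ILC2, had a difference of 1.99 ± 0.39 (adjusted p = 0.042), Trdc of 1.81 ± 0.35 (adjusted p = 0.034), Ccr9 of 1.69 ± 0.30 (adjusted p = 0.019) and Ccr2 of 1.39 ± 0.25 (adjusted p = 0.025). Their calls were lost in 10, 11, 8 and 10 of the 12 fits. In these 4 genes the CCR6 value was under the DN value in both genotypes, and by more in WT.

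Ifi204, a DNA sensor induced by interferon, was at 14.1, 16.1 and 17.4 CPM in DKO CCR6 and 8.86, 9.98 and 13.8 CPM in DKO DN, and at 20.3, 21.1 and 20.7 CPM in WT CCR6 and 3.09, 3.85 and 3.2 CPM in WT DN, with a difference of -2.07 ± 0.37 (adjusted p = 0.020), lost in 8 of the 12 fits. St3gal6, a sialyltransferase, differed by -1.35 ± 0.27 (adjusted p = 0.041), Chad, a matrix protein of cartilage, by -1.11 ± 0.21 (adjusted p = 0.034) and Fam184b by -0.95 ± 0.18 (adjusted p = 0.034). Those calls were lost in 10, 10 and 11 of the 12 fits.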

How the results depend on the processing

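Of the 75 named genes called between DKO CCR6 and DKO DN, 52 were called whichever of the 6 libraries was left out, 49 under every alternative, and 0 changed direction. Of the 15 named genes whose difference between genotypes passed, 4 were called whichever of the 12 libraries was left out. The counts of called genes depended on the fit. Fits with a library left out repeated the expression filter and tested 22813 to 22908 genes, against 21286 as reported. DKO CCR6 against DKO DN gave 380 genes as reported, 225 to 286 when a library was left out, 633 with DESeq2, 642 with limma voom, 777 with only the 12 CCR6 and DN libraries and 719 with only their 6 libraries. Of the 380, 377 were among those of DESeq2, 359 among those of limma voom, 371 with the 12 libraries, 356 with the 6, 317 without a filter on low counts, 336 with the replicate block, 325 with the block in the 6 libraries and 219 to 279 with a library left out. The share of higher genes among those called was 24.2% as reported, 24.3% with DESeq2's size factors, 38.9% with limma voom, 36.6% with the 12 libraries and 39.8% with the 6. WT CCR6 against WT DN gave 1243 as reported, 736 to 998 with a library left out, 1943 with DESeq2, 2415 with limma voom, 2648 with the 12 libraries and 2212 with only its 6. The difference between genotypes gave 27 as reported, 7 to 25 with a library left out, 62 without a filter on low counts, 169 with DESeq2, 71 with limma voom, 166 with the 12 libraries and 68 without WT ILC1 library 2. The causes were not tested. The labels give groups the same replicate numbers. Deviations of same-numbered CCR6 and DN libraries correlated weakly, at 0.0039 to 0.045. Each of the 6 CCR6 libraries still correlated best with the DN library of its number, a hint from the data and not the design. With the replicate number as a block the counts were 394, 1359 and 39 in the fit to all libraries, and 658 in DKO and 1989 in WT in the fit to the 6 libraries of the groups. With 3 libraries a group, genes changed by 1 log2 unit were called in 27 of 50 simulated cases, so smaller differences may often be missed. The simulation had no other differences between groups and changed no genes of very low level, so this rate need not hold for the data themselves.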
